A study of Caenorhabditis elegans with 10 samples.

Results

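The transcriptome of wild-type Caenorhabditis elegans, strain Bristol N2, was described from the 5 N2 arrays of a series of 10, with no comparison between strains. The other 5 arrays came from the mutant xpa-1 (ok698) I, which lacks the nematode counterpart of the human nucleotide excision repair protein XPA. Worms of both strains were untreated, of mixed stage, and fed HT115(DE3) Escherichia coli on plates kept at 20 degrees. Each array held total RNA of a separate collection pooled from many plates, from which starved plates had been left out, so the spread between arrays holds differences between cultures as well as between hybridisations. Of the 22625 probe sets on the array, 77 were Affymetrix controls, and 20766 of the other 22548 had exactly 1 gene symbol. They stood for 17118 genes, and each gene was represented by its probe set with the highest mean over the 5 N2 arrays.

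A mixed culture of C. elegans holds embryos, larvae that molt between stages, and self-fertile adults. The larval epidermis makes collagens and other cuticle proteins in bursts timed to each molt, the fourth larval stage makes sperm, and the adult makes oocytes while its intestine secretes vitellogenins, the yolk proteins. A sample of whole worms therefore carries the transcripts of every tissue and stage, weighted by how many worms of each stage were collected. Fewer cells of a type and less RNA per cell cannot be told apart in such a sample.

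Values are log2 signals as deposited, and a signal of 1, which is 0 on the log2 scale, was the lowest the file holds. Signals of different genes also depend on the probes, so the order of genes below is an order of probe set signals and not of transcript numbers. The 5 N2 arrays were much alike as a whole, with array medians between 4.00 and 4.17 and between 10.7% and 11.5% of probe sets at 0. As a check of the strain labels, the xpa-1 transcript read 6.38 to 6.88 on N2 arrays, against 0 to 1.58 on those of the mutant. Across genes, which are not independent replicates, pairs of N2 arrays correlated with r from 0.953 to 0.984. Replicates 3 and 4 were closest, with 12 genes of a mean of at least 5 standing 2-fold or more apart, and replicates 1 and 5 were farthest, with 579 such genes. The 3' minus 5' difference of the GAPDH control probe sets lay between -0.07 and 0.35, that of the actin controls between 0.21 and 0.42, and that of the ubiquitin controls between 1.08 and 1.22. The mean of the spiked-in control transcripts lay between 7.96 and 8.16. The part of these technical measures in the differences between cultures was not tested.

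Marker genes of several tissues and stages were read on all 5 arrays. The muscle myosin gene unc-54 averaged 9.72 ± 0.28, the eggshell gene cpg-2 11.06 ± 0.08, and the adult collagen gene col-19 9.93 ± 0.41 (SD, n = 5). In neurons the synaptobrevin gene snb-1 was brightest of the 30 listed, at 8.79 ± 0.08, the GABA synthesis gene unc-25 averaged 5.14 ± 0.38 and the acetylcholine transporter gene unc-17 3.98 ± 0.53 (SD, n = 5), and 15 of the 30 had a mean below 5. Early embryonic endoderm genes were dim, with end-1 at 3.32 ± 0.35 and med-1 at 3.81 ± 0.36 (SD, n = 5). Male genes were dim too. The sensory genes pkd-2 and lov-1 of male neurons averaged 2.98 ± 0.24 and 3.06 ± 0.19 (SD, n = 5). Of the 20 genes on the male list only tbb-6, at 6.30, had a mean of at least 5, and its use as a male marker was not tested.

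At the bottom of the scale, 600 of the 17118 genes (3.51%) were listed at 0 on all 5 N2 arrays. A further 2776 genes were at 0 on 1 to 4 arrays, and 13742 were above 0 on every array. Of 36 gene lists, 25 held no gene at 0 on all arrays, among them the lists of neurons, neuropeptides, muscle, intestine, germ line and embryo. The families with the highest shares were receptor and adaptor families of many related genes, which in C. elegans are often used in few cells. No depth stands behind an array value, so a gene at 0 is only listed at 0.

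The chemoreceptors of the sr and str families, seven-pass membrane proteins of sensory neurons, were the dimmest group. Of 1275 measured, 178 (14.0%) were at 0 on all 5 arrays and 694 (54.4%) had a mean below 1, against 2405 of all 17118 genes (14.0%). The list mean lay between 1.07 and 1.18 on the 5 arrays. Genes at 0 included sra-1, srb-2, str-3, srx-5 and srh-113. Only 9 chemoreceptor genes (0.706%) had a mean of at least 5, a level reached by 39.9% of all genes. The brightest of these was srr-4, with 5.32, 6.09, 6.17, 5.88 and 6.60 in N2 replicates 1 to 5, followed by srv-1 at a mean of 5.76, srw-60 at 5.54, sru-42 at 5.46 and str-260 at 5.36. Their SDs were 0.47, 0.18, 0.15, 0.17 and 0.53 in that order, and the values of neighbours in it overlapped between arrays.

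Other large families followed. Genes with MATH or BTB domains, which serve as adaptors of protein breakdown, had 13 of 103 at 0 on all 5 arrays (12.62%). C-type lectins, sugar-binding proteins often tied to defence, had 18 of 220 (8.18%), and nuclear hormone receptors, a transcription factor family greatly enlarged in this nematode, had 20 of 259 (7.72%). F-box genes, further adaptors of protein breakdown, had 19 of 310 (6.13%), and ion channels of the twk, lgc, acr and deg families had 7 of 120 (5.83%). The cytochrome P450 genes cyp-33C1, cyp-33C2 and cyp-34A10 were at 0 out of 73, and ugt-27 and ugt-35 out of 64 UDP-glucuronosyltransferases. Single genes at 0 in other lists were the collagen gene col-126, the sperm gene spe-38 and the hedgehog-related gene grl-24.

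These same families also had bright members, which set a few genes apart from their relatives. The lectin gene clec-87 averaged 11.19 ± 0.19 and clec-63 10.94 ± 0.11 (SD, n = 5), while 18 lectin genes were at 0. The nuclear hormone receptor gene nhr-49, known for its part in fat metabolism, averaged 7.87 ± 0.18 (SD, n = 5) against a median of 2.92 over its family. In the P450 family, cyp-33A1 averaged 9.10 ± 0.63 (SD, n = 5) against a median of 3.55.

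**Figure D1:**
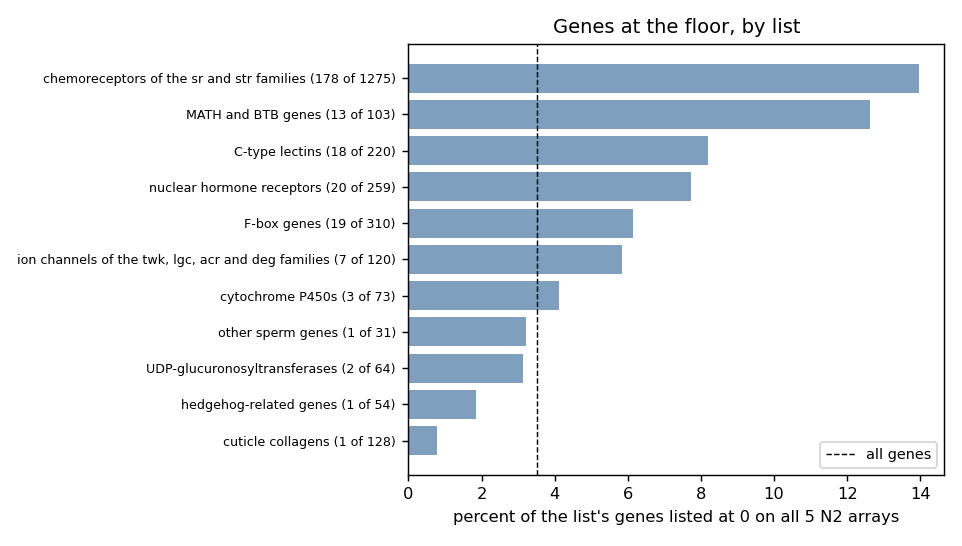
Bars give the percent of each gene list's measured members that were listed at 0 on all 5 N2 arrays, for the 11 lists with at least 1 such gene, with the counts beside the names; the dashed line is the share over all 17118 genes, 3.51%. Chemoreceptors (14.0%) and MATH and BTB genes (12.62%) stand highest, and cuticle collagens are lowest with 1 of 128.

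Genes at 0 were spread unevenly over the chromosomes. Chromosome V held 293 of the 600 (48.8%), against 25.2% of all measured genes. Chemoreceptors made part of this, since 137 of the 178 at 0 lie on chromosome V, as do 884 of all 1275. Of the 422 genes at 0 that were not chemoreceptors, 156 (37%) lay on chromosome V, which holds 21.7% of the genes outside that family. Annotated pseudogenes numbered 104 of the 600, and 11.9% of the 877 measured pseudogenes were at 0. In RefSeq gene order, 107 of the genes at 0 formed 50 runs of at least 2 measured neighbours, and the longest was a run of 6 MATH genes on chromosome II (math-13, math-16, math-17, math-5, math-6 and math-7). Some such runs arise by chance, as 6.78% of the genes measured on chromosome V were at 0. Their number under chance was not worked out, so the count does not show that genes at 0 cluster.

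At the top of the scale, 257 genes (1.5%) had a mean of at least 10, and 5 of them a mean of at least 12. All of these 5 were cuticle genes. The collagen gene col-93 was brightest, with 12.50, 12.27, 12.40, 12.43 and 12.28 in N2 replicates 1 to 5 (12.38 ± 0.10, SD, n = 5). It was followed by col-125 (12.21 ± 0.21), col-119 (12.08 ± 0.21), sqt-3 (12.06 ± 0.06) and col-160 (12.04 ± 0.14, SD, n = 5). sqt-3 is itself a collagen gene, known from mutants of abnormal body shape. The values of neighbours in this order overlapped between arrays. Each of these 5 probe sets is of the class whose probes can also match other genes, so other collagens may add to their signals.

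The 30 brightest genes held 6 col genes, the cuticle genes sqt-3 and dpy-13, 3 vitellogenins and 13 ribosomal protein genes of the fixed list. vit-5 averaged 11.95 ± 0.21, vit-4 11.92 ± 0.28 and vit-6 11.80 ± 0.19 (SD, n = 5). rpl-8 was the brightest ribosomal protein gene, with 11.82, 11.77, 11.75, 11.70 and 11.56 in N2 replicates 1 to 5. The others included eef-1A.1, an elongation factor of translation, at 11.66 ± 0.08, sip-1, a gene for a small heat shock protein, at 11.65 ± 0.14, and asp-1, an aspartyl protease gene of the intestine, at 11.54 ± 0.03 (SD, n = 5). Of the 30 brightest, 23 (76.7%) were measured by probe sets that can match more than 1 gene or transcript, against 24.6% over all genes.

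Ribosomal protein genes were bright, and about as steady as genes of that level. Of 64 measured, 63 had a mean of at least 10, and their list mean was 11.10, 11.13, 11.10, 11.08 and 10.98 in N2 replicates 1 to 5. The spread was 0.06 (SD, n = 5), and the median gene of the list had an SD of 0.08 against 0.31 over all genes. At a like level the SD was similar, with a median of 0.09 over the 100 genes with a mean from 11 to 12, ribosomal genes among them. In log2 the list's range was 0.15, against 0.06 without replicate 5, 0.09 after quantile normalization and 0.29 after centring each array on its median. rpl-42 was the exception, with a mean of 2.52 ± 0.21 (SD, n = 5). Among the 100 brightest genes 50 were ribosomal protein genes and 13 were cuticle collagens.

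Energy metabolism was steady as well. The 35 nuclear genes of oxidative phosphorylation had a list mean of 9.51, 9.41, 9.48, 9.54 and 9.50 in N2 replicates 1 to 5, and ant-1.1, the ADP/ATP carrier gene, averaged 11.19 ± 0.08 (SD, n = 5). Of the 8 mitochondrially encoded genes on the array, 3 had a mean of at least 10, namely ND4 at 10.70, COX3 at 10.31 and COX1 at 10.27. The X chromosome held 20 of the 257 genes with a mean of at least 10 (7.78%) and 13.8% of all measured genes.

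Most genes varied little between the N2 collections. The SD of log2 signal over the 5 arrays had a median of 0.31 over all genes and of 0.21 over the 6829 genes with a mean of at least 5. The SD depended on the level. Its median was 0.65 for the 1991 genes with a mean from 1 to 2, where a change of 1 unit in the rounded signal is a large step, 0.25 for means from 5 to 6, and 0.09 for means from 11 to 12. Spread is therefore described mainly for genes with a mean of at least 5.

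The steadiest genes with a mean of at least 8 had SDs between 0.02 and 0.03. ZK418.5 had 8.13, 8.09, 8.12, 8.12 and 8.10 in N2 replicates 1 to 5. erm-1, whose ERM protein links membrane and actin in the gut, had 9.02, 9.03, 9.03, 8.98 and 9.02. The others were rps-13 and rps-3 of the small ribosomal subunit, cri-3, the chaperonin gene cct-1, the cytochrome c gene cyc-2.1, the proton pump gene vha-11, the transcription elongation gene emb-5, and asp-1. None of the 10 was on a germ line, sperm, cuticle or molting list, while erm-1 and asp-1 were on the intestine list and cyc-2.1 on that of oxidative phosphorylation.

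At the other end, 679 of the 17118 genes (3.97%) had an SD of at least 1, and 564 of these had a mean below 5. Among the 6829 genes with a mean of at least 5, 115 (1.68%) had an SD of at least 1 and 442 (6.47%) an SD of at least 0.5. The gene just inside the first threshold was msp-19 at 1.002, and the next outside was Y47D7A.13 at 0.9997. With an offset of 16 added to the signals before the log, 50 genes reached an SD of at least 1, and with only probe sets specific to 1 gene 55 did so.

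**Figure D2:**
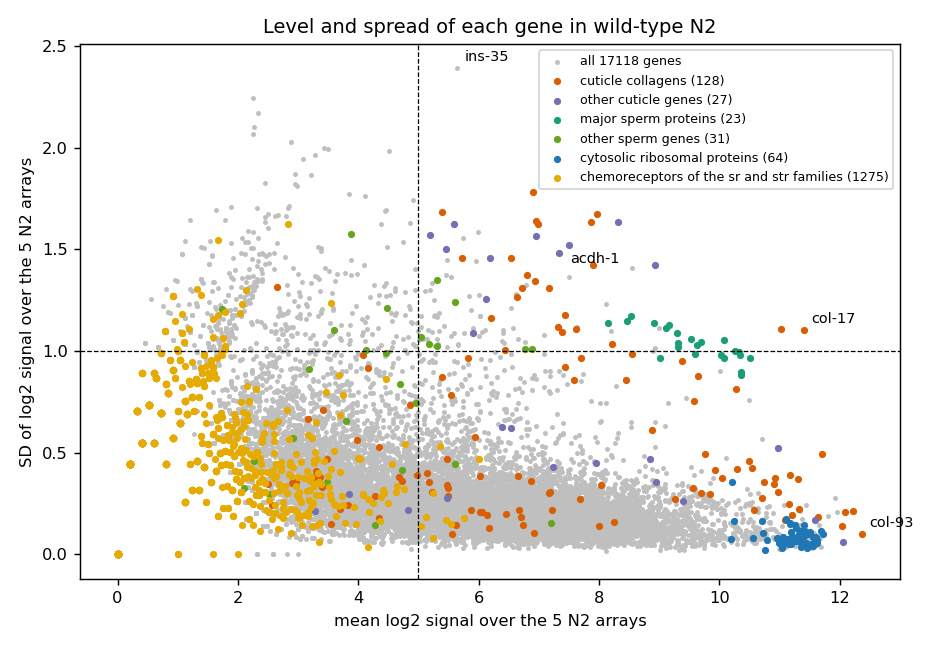
Each point is 1 of 17118 genes, with its mean log2 signal over the 5 N2 arrays on the x axis and the SD of its log2 signal on the y axis; dashed lines mark a mean of 5 and an SD of 1. Ribosomal protein genes sit at the lower right, chemoreceptors at the left, and the 115 genes at the upper right hold 34 cuticle and 21 sperm genes of the lists.

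The 115 variable genes fell into cuticle and sperm genes and a remainder. By the lists, 23 were cuticle collagens, 11 other cuticle genes, 4 genes of the molting cycle, pharyngeal abu or hedgehog-related lists, 14 major sperm protein genes and 7 other sperm genes, and 56 were on none of these. As shares of the list members with a mean of at least 5, 14 of 23 major sperm protein genes (60.9%), 7 of 9 other sperm genes (77.8%), 11 of 22 other cuticle genes (50.0%) and 23 of 94 collagens (24.5%) had an SD of at least 1. The corresponding share over all genes was 1.68%, and 61 of the 115 were measured by probe sets that can match more than 1 gene or transcript.

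Every one of the 115 genes had its lowest value on 1 of 2 arrays. It was N2 replicate 1 for 59 genes and N2 replicate 2 for 56, and for none was it replicate 3, 4 or 5. All 34 variable cuticle genes were lowest in replicate 1, and all 21 variable sperm genes of the lists were lowest in replicate 2. The highest value lay in replicate 4 for 50 genes, in replicate 3 for 32 and in replicate 5 for 31. In 75 genes (65.2%), replicates 3, 4 and 5 were above the gene's mean and replicates 1 and 2 below it. Over all 6829 genes with a mean of at least 5, replicate 1 was lowest for 1672 and replicate 2 for 773. Of the same 6829, replicate 4 was highest for 928, replicate 3 for 489 and replicate 5 for 1323. The pattern of the 75 genes was found in 558 of the 6829 (8.17%). The GAPDH 3' minus 5' difference was 0.03 in replicate 1 and 0.35, the highest of the 5, in replicate 2, and the spiked-in mean was lowest in replicate 1. The part of these in the result was not tested.

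The 2 sets also differed in where their genes lie. The X chromosome held 11 of the 59 genes lowest in replicate 1 (18.6%) and none of the 56 lowest in replicate 2, against 13.8% of all measured genes. No test was made, since the sets were drawn from the same values. Without replicates 1 and 2, an alternative chosen after seeing the data, 2 genes had a mean of at least 5 and an SD of at least 1 (acdh-1 and T22F7.4). Only acdh-1 was among the 115, since T22F7.4 had a mean of 4.89 over all 5 arrays. The median SD of the 115 genes over replicates 3, 4 and 5 was then 0.53, against 0.17 over all genes with a mean of at least 5.

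**Figure D3:**
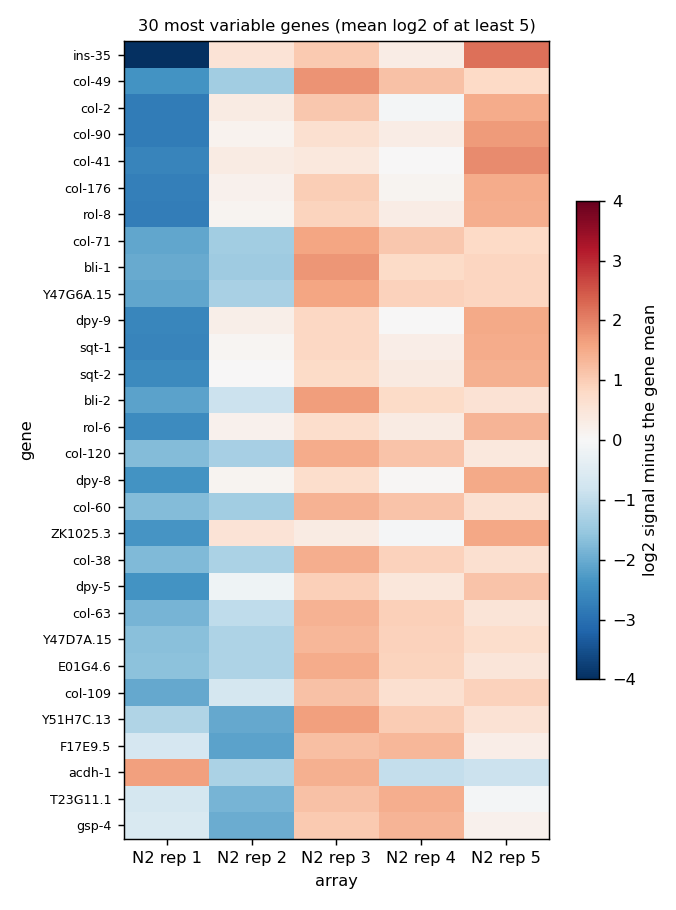
Rows are the 30 genes with the highest SD among those with a mean log2 signal of at least 5, columns are the 5 N2 arrays, and colour gives the log2 signal minus the gene's mean. Most rows are lowest in replicate 1, where cuticle genes lie well below their mean, and acdh-1 stands out with its high values in replicates 1 and 3.

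The single most variable gene was ins-35, which encodes an insulin-like peptide. Its log2 signal was 1.58, 6.19, 6.69, 5.93 and 7.85 in N2 replicates 1 to 5 (SD 2.39). Replicate 1 stood far below the other 4 arrays and near the floor, so no fold is given. Without replicate 1 the SD of ins-35 was 0.85, and with an offset of 16 it was 1.35. Of the 24 insulin-like peptide genes measured, only 3 had a mean of at least 5, and of these ins-35 alone had an SD of at least 1. ins-18 had a mean of 5.38 and an SD of 0.06, and ins-17 a mean of 5.37 and an SD of 0.43.

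Cuticle genes made up most of the following ranks. These ranks depended on replicate 1, since without it only 7 of the 30 most variable genes were still among the 30. The cuticle genes were divided by their highest array into 2 shapes. In 19 of the 34 the highest array was replicate 3, with mean signals of 5.01, 5.87, 8.11, 7.59 and 7.48 in replicates 1 to 5. These included col-49, with 4.52, 5.52, 8.68, 8.06 and 7.70 (SD 1.78), col-71 (SD 1.63), and bli-1, with 3.58, 4.17, 7.36, 6.36 and 6.46 (SD 1.62). bli-1 and bli-2 are collagen genes named for mutants with a blistered cuticle. In this shape replicates 1 and 2 were both low.

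In the other 15 cuticle genes the highest array was replicate 5, with mean signals of 5.16, 7.59, 8.37, 7.81 and 8.91 in replicates 1 to 5. By these means replicate 1 alone was far below the rest. In some of the genes, such as col-156 and lon-3, replicate 2 was below the gene's own mean too. The 15 included genes named for rolling, squat or dumpy mutants, namely rol-6, rol-8, sqt-1, sqt-2, dpy-5, dpy-8 and dpy-9. rol-8 had 5.55, 8.43, 9.19, 8.61 and 9.78 (SD 1.63), sqt-1 had 4.32, 7.01, 7.77, 7.21 and 8.42 (SD 1.57), and rol-6 had 4.81, 7.49, 8.02, 7.65 and 8.68 (SD 1.48). col-17 showed the same shape at the bright end of the scale, with 9.49, 11.49, 12.02, 11.76 and 12.23 (SD 1.10). The 2 shapes were drawn from the values themselves, so the difference between them is a description.

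Second probe sets of the same genes could be read for 10 of the 115. Of their 11 further probe sets, 8 had the same lowest array as the chosen one and 5 had an SD of at least 1. For bli-1 the other probe set read 2.58, 4.00, 6.46, 5.67 and 5.86, and for rol-8 it read 4.25, 6.32, 7.13, 6.58 and 7.73 in N2 replicates 1 to 5. The 3 that differed belonged to the sperm genes ssq-1, ssq-2 and ssq-3, with means between 1.95 and 2.60.

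Not every collagen moved in this way. The mean of all 128 collagens was 6.35, 6.49, 7.15, 7.03 and 6.99 in N2 replicates 1 to 5, a range of 1.75-fold, and the brightest, col-93, ranged over 1.17-fold. A further group was low in replicates 2 and 5 rather than in replicate 1. In it, col-81 had 8.83, 6.99, 9.06, 9.56 and 8.27 (SD 0.98), and col-139 had 9.65, 7.95, 9.97, 10.38 and 8.97 (SD 0.95). These were chosen after their values were seen.

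Genes of the molting cycle followed the cuticle genes. The list of 43 had a mean of 4.50, 5.40, 5.67, 5.41 and 5.82 in N2 replicates 1 to 5, a range of 2.48-fold. Of its members 39 were lowest in replicate 1, as were 6271 of all 17118 genes. Ties were counted for the earlier replicate. Of all genes with a mean of at least 5, 24.5% were lowest in replicate 1, and 27 of the 43 had such a mean. qua-1, a hedgehog-related gene needed for molting, had 3.17, 5.25, 5.98, 5.46 and 6.41 (SD 1.25), and wrt-4, of the warthog family, had 3.00, 4.81, 6.23, 5.55 and 5.95 (SD 1.29). lin-42, the nematode counterpart of the period clock gene, averaged 4.52 and had 2.81, 4.52, 5.29, 4.91 and 5.09 (SD 0.999). The list of other cuticle genes had the widest range of the epidermal lists, 3.28-fold, with 5.67, 6.78, 7.25, 6.88 and 7.38. Without replicate 1 the range was 0.60 in log2 for other cuticle genes, against 1.72 with it, and 0.42 for the molting list, against 1.31.

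Pharyngeal genes moved less as a list. The 58 abu and pqn genes, several of which encode components of the pharyngeal cuticle, had a mean of 4.76, 4.92, 5.17, 5.08 and 5.33 in N2 replicates 1 to 5. Within them abu-6 had 5.04, 5.46, 7.10, 6.75 and 7.64 (SD 1.10), while pqn-53 had an SD of 0.09 at a mean of 8.83. The 54 hedgehog-related genes had a mean of 3.36, 3.89, 4.14, 3.93 and 4.13, a range of 1.71-fold.

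The major sperm proteins, which build the cytoskeleton of the crawling nematode sperm and signal to the oocyte, had the widest range of all 36 lists. Their mean was 9.25, 8.01, 10.35, 10.62 and 9.60 in N2 replicates 1 to 5 (9.57 ± 1.03, SD, n = 5), a range of 6.13-fold. All 23 genes were lowest in replicate 2 and highest in replicate 4. They shared this pattern across chromosomes, as with msp-142 on chromosome II, which had 8.29, 6.69, 9.34, 9.71 and 8.64 (SD 1.17), and msp-55 on chromosome IV, which had 10.25, 8.99, 11.18, 11.46 and 10.64 (SD 0.97). Their sequences are nearly alike and each of the 23 probe sets can match more than 1 of them, so the 23 are not separate measurements. The range of the list was 1.37 in log2 without replicate 2, against 2.61 with it. Only msp-32 had a further probe set specific to 1 gene, a dimmer one that read 3.58, 3.17, 4.39, 4.64 and 4.39.

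Sperm genes outside this family gave the same order of arrays. The 31 other sperm genes had a list mean of 3.59, 2.92, 4.43, 4.56 and 3.79 in N2 replicates 1 to 5, a range of 3.12-fold. In log2 the range was 1.64, against 0.96 without replicate 2 and 0.86 with an offset of 16 on the signals. ssp-35, measured by probes for 1 gene, had 3.81, 2.81, 5.39, 5.83 and 4.52 (SD 1.21). gsp-4, a protein phosphatase gene of sperm, had 4.70, 3.32, 6.34, 6.67 and 5.49 (SD 1.35), and its close relative gsp-3 had 4.91, 3.81, 6.63, 6.77 and 5.88 (SD 1.24). spe-39, which also acts outside sperm in vesicle traffic, had an SD of 0.15 at a mean of 7.21.

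The cuticle, molting, abu and pqn, hedgehog-related and sperm lists held none of the other 35 genes lowest in replicate 2. These 35 included msd-2 and msd-4, related to the major sperm proteins, nspd-1, nspd-4 and nspd-7 of a nematode-specific peptide family, the sperm chromatin gene spch-1, spe-18, and gipc-1. msd-2 had 7.91, 6.54, 8.95, 9.40 and 8.21 (SD 1.10), and spch-1 had 4.25, 3.46, 6.11, 6.13 and 5.25 (SD 1.17). gipc-1 had 4.75, 3.17, 6.25, 6.48 and 5.46 (SD 1.34). Further members are known only by locus names, such as Y51H7C.13, with 4.52, 3.70, 7.39, 6.74 and 6.32 (SD 1.56), F17E9.5 (SD 1.45) and T23G11.1 (SD 1.37). The files give no function for these 3.

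Genes of the female germ line were lowest in replicate 5. The 26 oocyte and eggshell genes had a mean of 9.73, 9.59, 9.37, 9.42 and 9.04 in N2 replicates 1 to 5, a range of 1.61-fold, with 25 members lowest in replicate 5 and 21 highest in replicate 1. Of all 6829 genes with a mean of at least 5, 49.3% were lowest in replicate 5 and 37.4% highest in replicate 1. oma-2, an RNA-binding regulator of oocyte maturation, had 10.17, 9.84, 9.65, 9.74 and 9.05 (SD 0.41), and cbd-1, an eggshell gene, had 10.21, 10.11, 9.86, 10.00 and 9.26 (SD 0.37). The 31 germ line genes gave 7.52, 7.32, 7.19, 7.28 and 6.84, with 30 members lowest in replicate 5. Replicate 1, lowest for cuticle genes, was thus highest for both lists.

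Yolk protein genes shared the low value in replicate 5. The 5 vitellogenin genes had a mean of 11.52, 11.43, 11.36, 11.36 and 10.88, a range of 1.56-fold, and each was lowest in replicate 5. vit-1 varied most, with 10.56, 10.11, 10.33, 10.26 and 9.32 (SD 0.47). The 31 embryo genes had a mean of 4.77, 4.71, 4.40, 4.53 and 4.38, with replicates 3 and 5 lowest and close together. Of these 31 genes, 14 were lowest in replicate 5 and 10 in replicate 3. Replicate 5 was lowest for 4712 of all 17118 genes. Over all 6829 genes with a mean of at least 5, replicate 5 was lowest for 3367 (49.3%), and proteasome genes (8.85, 8.74, 8.75, 8.73 and 8.45) were lowest there in 32 of 33 cases. Replicate 5 also had the lowest 75th percentile of all 5 arrays, 6.25 against 6.30 to 6.39. Without replicate 5 the vitellogenin range was 0.16 in log2, against 0.64, and that of the oocyte list 0.36, against 0.69.

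**Figure D4:**
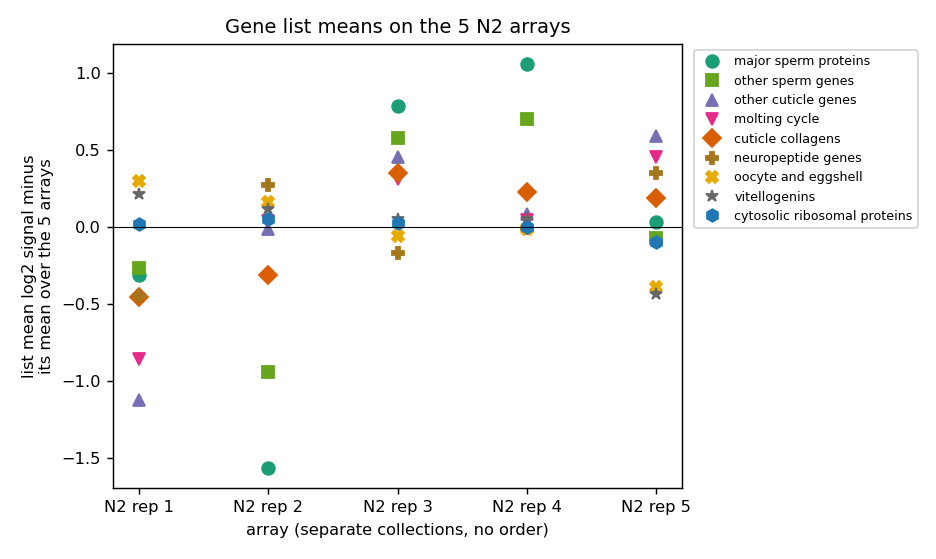
The 5 N2 arrays are on the x axis, and the y axis gives each list's mean log2 signal on the array minus its mean over all 5. Major sperm proteins lie farthest down in replicate 2, other cuticle and molting genes in replicate 1, oocyte and vitellogenin genes in replicate 5, and ribosomal protein genes stay near 0 on all arrays.

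Lists of other somatic tissues had narrower ranges than the sperm, molting and other cuticle lists. The neuropeptide list ranged over 1.73-fold, close to the 1.75-fold of the collagens. Neuronal genes (30) had a mean of 4.57, 5.23, 4.76, 4.86 and 5.13 and neuropeptide genes (83) a mean of 4.51, 5.23, 4.78, 4.95 and 5.30 in N2 replicates 1 to 5, with replicate 1 lowest and replicates 2 and 5 highest in both. Of the 83 neuropeptide genes 62 were lowest in replicate 1, as were 6271 of all 17118 genes, with ties counted for the earlier replicate. flp-1 had 6.95, 8.04, 7.48, 7.61 and 8.33 (SD 0.53), and the vesicle fusion gene ric-4 had 5.93, 7.24, 6.73, 6.67 and 7.43 (SD 0.59). Muscle genes gave 8.42, 8.54, 8.73, 8.69 and 8.85, where the pharyngeal myosin gene myo-2 had the highest SD, 0.52. Intestinal genes gave 7.74, 7.90, 7.93, 8.10 and 8.20.

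Replicate 1 was the lowest array for 19 of the 36 lists, replicate 5 for 10, replicate 2 for 4, replicate 4 for 2 and replicate 3 for 1. The lists overlap in part, since some genes are on more than 1. The cyp-35B genes of cytochrome P450s, which are induced by foreign compounds in this species, were low in replicate 1. cyp-35B1 had 4.17, 6.69, 6.21, 6.63 and 6.82 (SD 1.11), cyp-35B3 had 4.64, 7.44, 6.39, 6.36 and 7.15 (SD 1.09), and cyp-35B2 had 6.73, 8.33, 8.08, 8.32 and 8.62 (SD 0.74). They stood among 73 P450 genes whose list mean ranged over 1.25-fold. The metallothionein gene mtl-1, which binds metals and lies in the intestine list, had 1.0, 5.09, 3.32, 4.46 and 5.36 (SD 1.77) at a mean of 3.85, while mtl-2 had an SD of 0.32 at a mean of 7.88.

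Of the 59 genes lowest in replicate 1, 21 were on none of the cuticle, molting, abu and pqn, hedgehog-related or sperm lists. dpy-6, which encodes a mucin-like protein of the cuticle, had 4.17, 6.55, 6.21, 5.88 and 7.34 (SD 1.17) in N2 replicates 1 to 5. The lectin genes clec-17 and clec-180 had SDs of 1.06 and 1.30, with replicate 1 at 5.09 and 3.00 and the other arrays between 6.41 and 7.92 for clec-17 and between 5.32 and 6.27 for clec-180. The saposin-like gene spp-13 had 3.58, 5.21, 6.04, 5.39 and 6.29 (SD 1.06). Locus-named genes of this set included Y47G6A.15, with 3.91, 4.70, 7.57, 6.92 and 6.83 (SD 1.59), and ZK1025.3, with 3.58, 6.48, 6.29, 5.91 and 7.48 (SD 1.45). The first had replicates 1 and 2 low, as col-49 did, and the second replicate 1 alone.

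acdh-1 stood apart from the cuticle and sperm patterns. It encodes an acyl-CoA dehydrogenase that opens the propionate shunt, a route that breaks down propionate without vitamin B12 and is known in C. elegans to be turned on when B12 is short. Its log2 signal was 10.19, 7.29, 9.95, 7.60 and 7.67 in N2 replicates 1 to 5, a range of 7.46-fold with an SD of 1.41. Replicates 1 and 3 were high and the other 3 arrays lay between 7.29 and 7.67. It was the only gene of the 115 with this pattern and had the highest SD, 1.34, over replicates 3, 4 and 5 alone.

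The other shunt genes, listed after the values of acdh-1 had been seen, had the same 2 arrays on top. hphd-1, a dehydrogenase gene of the shunt, had 8.61, 7.58, 8.75, 7.81 and 7.91 (SD 0.52) in N2 replicates 1 to 5. hach-1, the hydrolase gene, had 8.08, 7.41, 8.08, 7.58 and 7.54 (SD 0.32). ech-6 had 9.97, 9.30, 9.88, 9.44 and 9.54 (SD 0.29), and alh-8 had 9.54, 8.89, 9.42, 9.20 and 9.34 (SD 0.25). All 5 shunt genes were lowest in replicate 2.

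Genes of the route that uses vitamin B12 did not follow. pcca-1 and pccb-1, the subunits of propionyl-CoA carboxylase, had SDs of 0.13 at means of 9.49 and 9.03. mmcm-1, the B12-dependent mutase gene, had 7.52, 7.98, 7.83, 7.99 and 8.14 (SD 0.24). The mean of all 6 genes ranged over 1.08-fold, against 2.27-fold for the 5 shunt genes, which include acdh-1 at 7.46-fold. Singly, the other shunt genes ranged from 1.57-fold (alh-8) to 2.25-fold (hphd-1). The 6 genes of the B12 route ranged from 1.14-fold (mmab-1) to 1.54-fold (mmcm-1). The receptor genes nhr-10 and nhr-68, which regulate the shunt, had SDs of 0.18 and 0.11.

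**Figure D5:**
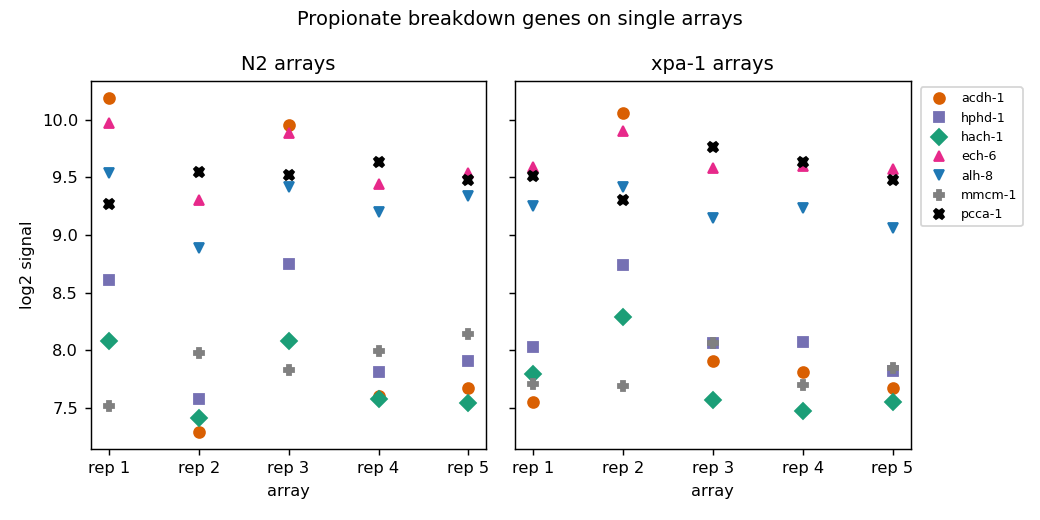
The log2 signals of 5 propionate shunt genes (acdh-1, hphd-1, hach-1, ech-6 and alh-8) and of mmcm-1 and pcca-1 of the B12 route are plotted for each N2 array on the left and each xpa-1 array on the right. acdh-1 is near 10 in N2 replicates 1 and 3 and in xpa-1 replicate 2, and between 7.29 and 7.91 on the other 7 arrays.

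The 5 xpa-1 arrays are a separate set of collections grown in the same way, and their spread was read for the same genes without comparing the strains' levels. The 115 genes had a median SD of 1.14 on the N2 arrays, which chose them, and of 0.67 on the xpa-1 arrays. Over all genes with a mean of at least 5 the medians were 0.21 on the N2 arrays and 0.17 on the xpa-1 arrays. An SD of at least 0.5 on the xpa-1 arrays was reached by 102 of the 115 (88.7%), against 310 of the 6829 (4.54%). Of the 115 genes with the highest SD on the xpa-1 arrays, 56 were among the 115 of N2 (48.7% of each list). ins-35 was variable in both, with an SD of 2.39 on the N2 arrays and 1.66 on the xpa-1 arrays, and acdh-1 had an SD of 1.41 on the N2 arrays and 1.05 on the xpa-1 arrays. On the xpa-1 arrays acdh-1 read 7.55, 10.06, 7.91, 7.81 and 7.67, with 1 array high. A strain difference in spread was not tested.

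Of the 15 genes with the highest SD at any level, 14 had a mean below 5, and each of these 14 was lowest in replicate 1 or 2 or at 0 in both. alg-3, an Argonaute gene that acts during sperm formation, had 0, 0, 3.81, 4.52 and 3.32 (SD 2.17), and the receptor gene nhr-155 had 0, 0, 3.70, 3.32 and 4.32 (SD 2.10). C47A4.5 had 0, 0, 4.39, 4.58 and 2.32 (SD 2.24). Values at 0 have no order below the lowest signal, so these SDs depend on the floor, and no fold is given for them.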

How the data were processed

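The deposited table holds log2 probe set signals, 1 column per array, which the authors made with Affymetrix Expression Console, per the submitters' processing notes. Its summary method, background step and scaling were not given in the sources used here. Values below 5 were log2 of whole numbers within 0.006, with a floor of 0. The deposited values were used unchanged. Gene symbols came from the platform annotation (887 probe sets with several symbols and 895 with none were left out), and chromosomes and biotypes from the RefSeq gene table of WBcel235, which held all 17118 symbols. No build is named for the probes, so no coordinates are given. With 1 group no test was made. The 30 brightest genes, the 30 most variable with a mean of at least 5, the 15 most variable of all, the 10 steadiest with a mean of at least 8, list members at 0, and up to 4 members of a list by SD and by mean were named. Other named genes, and the propionate lists, were chosen after their values were seen. Genes and lists were chosen with earlier results of these data known. Python 3.11.15, numpy 2.4.6, pandas 2.3.3 and matplotlib 3.10.9 were used, and the SD step was tested on simulated data. Alternatives were median centring, quantile normalization, an offset, other probe set rules, another spread measure and threshold, and leaving out arrays. The number of arrays limits the precision.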

Additional observations from a re-analysis of the deposited data

Results flagged for a closer look

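In 119 groups of 5 N2 values, from genes and gene lists named by the rule, 7 had 1 array farther from the others than Dixon's 95% critical value of 0.71 allows as a share of the range. Chance flags about 1 in 20 groups of independent, unselected values. Many of these genes were named by their SD on the same arrays, lists share members, and some values are at the floor. The 7 of 119 can therefore not be set against that rate. Of the 7, 3 were low in replicate 1, 3 in replicate 5 and 1 in replicate 4.

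The vitellogenin list mean was 10.88 in replicate 5, where the other N2 arrays lay between 11.36 and 11.52. The ribosomal protein genes rps-25 and rpl-23 were also low there, with rps-25 at 11.48 against 11.72 to 11.77 and rpl-23 at 11.53 against 11.63 to 11.67. In replicate 1 the list of 40 glutathione S-transferases, detoxifying enzymes, had a mean of 4.33 against 4.53 to 4.60. T06A4.3 was listed at 0 in replicate 1 against 3.46 to 4.86, and srlf-4 at 0 against 3.91 to 4.95. erm-1 was at 8.98 in replicate 4 against 9.02 to 9.03, a gap that stands out only because the other 4 values are so close.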

How the results depend on the processing

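No paired analysis was possible because the results come from 1 group and from no test. Without _s_ and _x_ probe sets, whose probes can match more than 1 gene or transcript, 102 genes had a mean of at least 10 (257 with them), 55 of the genes with a mean of at least 5 had an SD of at least 1 (115), and the major sperm protein list came down to 1 dim gene, msp-32, with a range of 1.47 in log2 (2.61 over 23 genes). An offset of 16 gave a median SD of 0.13 (0.31), 50 genes with an SD of at least 1 at any mean (679) and 50 with a mean of at least 5, and a range of 0.86 (1.64) for other sperm genes. A threshold of 0.5 on the SD gave 4574 and 442 genes. Median centring and quantile normalization gave ribosomal ranges of 0.288 and 0.0908 (0.15). They shift the floor, so the count at 0 was not run under them. For 11 of the 27 lists whose ranges are not given in this section, median centring changed the range by more than the SD of the list mean. Leaving out replicates 1 and 2 together, chosen after seeing the data, gave 2 variable genes. They were acdh-1 of the 115 and T22F7.4, which was not among them. Leaving out each array in turn gave 703 to 742 genes at 0 (600), 250 to 265 with a mean of at least 10, median SDs from 0.26 to 0.32, 617 to 909 genes with an SD of at least 1, and 92 to 127 with a mean of at least 5. List ranges were then 0.0563 to 0.15 for ribosomal proteins, 0.16 to 0.64 for vitellogenins, 1.37 to 2.61 for major sperm proteins, 0.96 to 1.64 for other sperm genes, 0.36 to 0.69 for oocytes, 0.65 to 0.81 for collagens, 0.60 to 1.72 for other cuticle genes, 0.42 to 1.31 for molting and 0.49 to 0.70 for neurons. Quantile normalization kept 112 of the 115 variable genes and median centring 102. Without replicate 1, 69 of the 115 were shared, and without replicate 2, 62. Of the 30 most variable genes, 7 were shared without replicate 1 and 24 without replicate 2.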

Other observations

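A smaller group of genes was high in N2 replicates 1 and 2, the arrays that were low for cuticle or sperm genes. Of the 442 genes with a mean of at least 5 and an SD of at least 0.5, 20 were above their mean on these 2 arrays only (4.52%), and over all 6829 genes with a mean of at least 5 there were 835 (12.2%). xpc-1, the nematode counterpart of a damage sensor of nucleotide excision repair, had 7.18, 7.19, 5.98, 6.02 and 5.70 in N2 replicates 1 to 5 (SD 0.71). anc-1, which anchors nuclei to the cytoskeleton, had 9.15, 9.95, 8.41, 8.41 and 8.69 (SD 0.65). The poly(U) polymerase gene pup-2 had 7.55, 7.71, 6.69, 6.51 and 6.32 (SD 0.63). Their values were seen before they were chosen, and no test was made.

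Lysozyme genes did not share 1 order. lys-7 had 7.17, 8.12, 9.31, 8.38 and 9.16 (SD 0.87), and ilys-5 had 10.03, 9.18, 10.43, 9.12 and 8.50 (SD 0.77), with replicates 1 and 3 on top. lys-2 had an SD of 0.14 at a mean of 10.10.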
